A study of Mus musculus with 5 samples.

Results

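Tubulin genes were followed in colon RNA from mice with chemically induced colitis, given propyzamide or vehicle. Propyzamide is used as a herbicide and acts on plant microtubules, so the genes that encode the building blocks of microtubules were examined gene by gene and as shares of the tubulin mRNA pool. The members were taken by symbol from the deposited gene identifiers. They were 10 of 55471 genes, namely the alpha tubulins Tuba1a, Tuba1b, Tuba1c and Tuba4a, the beta tubulins Tubb2a, Tubb2b, Tubb4b, Tubb5 and Tubb6, and the gamma tubulin Tubg1. All 10 had a count in every library and all 10 passed the filter on low counts.

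The propyzamide group had 3 libraries and the vehicle group 2. All mice were male C57BL/6 animals, 11 weeks old, and every one had received TNBS, a hapten that inflames the colon, 3 days before a piece of colon was frozen. The only labelled difference is the compound. Its dose and route, and the segment of colon, are not stated in these sources. The labels do not say that the libraries came from separate mice, and a p-value then covers only the spread between these samples, which may be technical. Colon without TNBS was not analysed here.

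Microtubules are hollow polymers of a dimer of 1 alpha and 1 beta tubulin. Gamma tubulin does not enter the polymer wall but sits in ring complexes from which new microtubules grow. Mammals carry several alpha and beta genes, called isotypes, that differ mostly at the end of the protein and in the tissues that use them. Cells also adjust tubulin mRNA to the amount of free dimer: the factor Ttc5 recognises the first amino acids of a tubulin as it is made on the ribosome, and the mRNA is then degraded. In cultured mammalian cells, drugs that release free dimer lower tubulin mRNA by this route.

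The first coding bases, which in alpha and beta genes encode this recognised start, are shown for 2 alpha genes and 2 beta genes, with the gamma gene beside them, as annotated by GENCODE M21 on the GRCm38 build. Each is read 5′ to 3′ on the coding strand, and capitals mark the first 4 codons.
Tuba1a: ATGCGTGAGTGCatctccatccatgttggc
Tuba4a: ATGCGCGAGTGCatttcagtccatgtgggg
Tubb4b: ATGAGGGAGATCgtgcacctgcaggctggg
Tubb2a: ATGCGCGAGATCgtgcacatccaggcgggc
Tubg1: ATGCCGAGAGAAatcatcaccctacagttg
In the genes shown, the fourth codon is TGC in the alpha genes and ATC in the beta genes, and Tubg1 has other codons after ATG.

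Total estimated counts per library were 1882214 to 2706840 in propyzamide and 1573592 and 2258149 in vehicle, of which the 10 tubulin genes took 1981 to 3916 counts in propyzamide and 1688 and 1112 counts in vehicle. Loci that resemble ribosomal RNA and the mitochondrial genes took 50.9% to 58.2% of the counts in propyzamide, and 36.3% and 63.3% in vehicle. The libraries also differed in the segment markers: Hoxd13, a gene of the hindmost gut, had 0 counts in all 3 propyzamide libraries and 81 and 91 counts in vehicle. Fabp2, a fatty acid binding protein highest in the small intestine, stood at 228 to 837 TMM-scaled CPM (counts brought to a common library size, with a correction for library composition) in propyzamide and at 7.44 and 2.84 CPM in vehicle. Car1, a carbonic anhydrase of the colon, was present in all 5 libraries, at 2434 to 6098 CPM in propyzamide and 869 and 969 CPM in vehicle. Summed small-intestine markers were 278 to 975 CPM in propyzamide and 23.6 and 17.6 CPM in vehicle. The second index sequence differed between the groups with 0 shared, so an index batch and the treatment cannot be told apart.

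Tuba1a rose in propyzamide, and it was the only member that passed the test over all genes. It encodes an alpha tubulin best known from developing neurons. Its TPM (the authors' length-corrected level, scaled to the same total in every library) was 60.2, 89.8 and 140 in propyzamide, against 43.2 and 18.8 in vehicle. Every propyzamide library lay above both vehicle libraries, and propyzamide replicate 1 stood closest to them. In TMM-scaled CPM it was 192 ± 104 in propyzamide (SD, n = 3) and 41.4 ± 1.64 in vehicle (SD, n = 2). The log2 fold change was 2.21 ± 0.49 (SE), a 4.62-fold difference, with an adjusted p of 0.0438 (edgeR quasi-likelihood test, adjusted by Benjamini-Hochberg). Of 12024 genes tested, 0.69% were called higher in propyzamide and 1.21% lower. The calls were 36.2% higher ones, against 25.2% with upper-quartile scaling, 13.5% with limma on log2(TPM + 1) and 14.4% on log2(TPM + 0.1). Without vehicle replicate 2 they were 63.6%, with 35 genes higher and 20 lower. These are pieces of whole tissue, in which fewer cells of a type and less RNA per cell cannot be told apart.

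The call for Tuba1a stands close to the threshold of 0.05. With propyzamide replicate 2 or 3 left out, the edgeR adjusted p was 0.0613 and 0.108. With vehicle replicate 1 or 2 left out, which leaves a lone vehicle library, it was 0.331 and 0.233. With limma on the authors' TPM the log2 change was 1.64 at a pseudocount of 1 and 1.67 at 0.1, neither called (limma adjusted p = 0.174 and 0.237). There the median of all genes lay at -0.39 and -0.47, against -0.018 in the edgeR test. The direction was positive in all 17 alternatives, which was largely fixed because the groups lay apart in both CPM and TPM. The call was kept in 9. The 9 include a fit with replicate number as a block. In that fit propyzamide replicate 3 has no vehicle partner and adds nothing to the group difference. The run with near-identical copies merged is among the 17, and its value is that of Tuba1a, Tuba1b and Tuba1c summed.

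**Figure D1:**
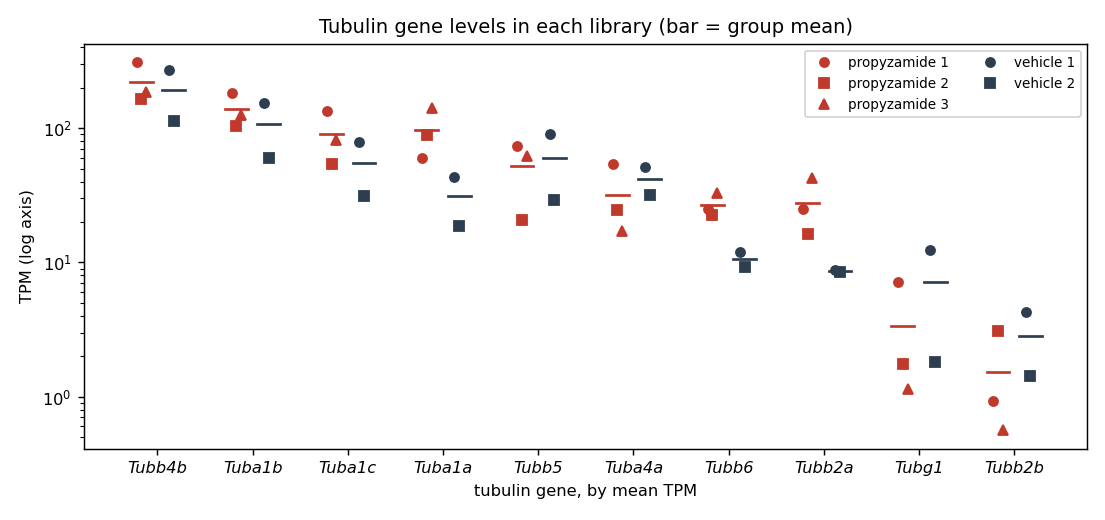
Level of each tubulin gene in TPM (log axis) in the 3 propyzamide libraries (red, left of each pair) and the 2 vehicle libraries (dark, right), with short bars at the group means. The groups are apart in TPM for Tuba1a, Tubb6 and Tubb2a, and overlap for the other 7 genes.

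Tubb2a and Tubb6, beta tubulins, showed the next largest differences and narrowly missed the threshold. Tubb2a stood at 25.0, 16.2 and 42.5 TPM in propyzamide, against 8.76 and 8.42 TPM in vehicle. Tubb6 stood at 25.0, 22.5 and 32.9 TPM in propyzamide, against 12.1 and 9.25 TPM in vehicle. For both genes the lowest propyzamide library was above the highest vehicle library. The log2 fold change was 2.05 ± 0.54 (SE) for Tubb2a (edgeR adjusted p = 0.0671) and 1.73 ± 0.43 for Tubb6 (edgeR adjusted p = 0.0560). Each was positive in all 17 alternatives, a direction largely fixed because the groups lay apart. Each was called in 4 of the alternatives, among these DESeq2 (DESeq2 adjusted p = 0.0191 for Tubb2a and 0.0212 for Tubb6) and the fit without propyzamide replicate 1 (edgeR adjusted p = 0.0441 and 0.0404). The 4 also include the fit with replicate number as a block, in which propyzamide replicate 3 adds nothing to the group difference. The 17 include the run with near-identical copies merged. That run measures Tubb2a and Tubb2b summed, and for Tubb6 it nearly repeats the main test. Over all alternatives the adjusted p ran from 0.00164 to 0.500 for Tubb2a and from 0.00867 to 0.454 for Tubb6, with the highest in edgeR without vehicle replicate 1. DESeq2 called 4.7% of all genes, 2.16% as higher in propyzamide, where edgeR called 1.9%.

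The most abundant tubulins showed smaller differences. Tubb4b, the beta tubulin of many cell types and of cilia, had the highest mean level, at 310, 166 and 186 TPM in propyzamide, against 270 and 114 TPM in vehicle. Tuba1b, a widely used alpha tubulin, followed at 185, 105 and 125 TPM in propyzamide, against 154 and 60.03 TPM in vehicle. Both genes were higher in vehicle replicate 1 than in the lowest propyzamide library, so the groups overlapped in TPM. In TMM-scaled CPM, by contrast, Tubb4b was at 415, 301 and 346 in propyzamide and at 228 and 213 in vehicle, without overlap. The log2 fold changes were 0.68 ± 0.36 for Tubb4b and 0.86 ± 0.35 for Tuba1b (SE; edgeR adjusted p = 0.349 and 0.212).

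Tuba1c, the third widely used alpha gene of that cluster, lay between these sets. It stood at 135, 54.4 and 81.8 TPM in propyzamide and at 79.4 and 31.1 TPM in vehicle, with overlap. In TMM-scaled CPM it was 226, 125 and 194 in propyzamide and 80.2 and 74.3 in vehicle, and there the groups did not overlap. Its log2 fold change was 1.23 ± 0.38 (SE; edgeR adjusted p = 0.108), and DESeq2 called it (DESeq2 adjusted p = 0.0411).

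Tubb5, the beta tubulin abundant in dividing cells, stood at 73.4, 20.8 and 61.9 TPM in propyzamide and at 91.3 and 29.3 TPM in vehicle. Its log2 fold change was 0.37 ± 0.45 (SE; edgeR adjusted p = 0.725), and it was -0.18 with limma on TPM. Propyzamide replicate 2 was the lowest of all libraries in this gene. Summed markers of cycling cells, 10 of 10 present in every library, were also lowest there, at 339, 108 and 174 CPM in propyzamide, against 222 and 158 CPM in vehicle. Their part in the Tubb5 values was not tested. Tuba4a, an alpha tubulin encoded apart from the cluster, had 0.29 ± 0.38 on the same log2 scale (edgeR adjusted p = 0.747), and its sign turned on the TPM scale (-0.50 in limma at a pseudocount of 1).

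The lowest members rested on few reads. Tubg1, the main gamma tubulin, had 32, 7 and 4 counts in propyzamide and 26 and 4 counts in vehicle. Tubb2b, a beta tubulin of the nervous system, had 5, 15 and 2 counts in propyzamide, against 13 and 5 counts in vehicle. Reads at olfactory and pheromone receptor genes, which serve smell and are used here as a background level, would give 0.167, 1.35 and 0.396 counts over the length of Tubb2b in propyzamide, and 2.58 and 1.18 counts in vehicle. The SEs of the log2 fold changes, 0.83 for Tubg1 and 0.95 for Tubb2b, exceeded the estimates of -0.19 and -0.24 (edgeR adjusted p = 0.939 and 0.930), so no difference was detectable in these libraries.

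Over the family, 1 of 10 members rose, 0 fell and 9 did not pass. The members had a median log2 fold change of 0.77, against -0.018 over all genes tested, and 8 were positive and 2 negative, with Tuba4a and Tubb5 turning negative in limma on TPM. At an unadjusted p under 0.05 in edgeR there were 5 members, all higher in propyzamide, where 8.52% of all genes were. In TMM-scaled CPM 6 members lay higher in every propyzamide library than in any vehicle library and 0 lay lower, where 16.7% and 20.8% of all tested genes did so. Both sets of members include Tuba1a, Tuba1b and Tuba1c, near-identical copies among which reads are divided. The members are therefore not independent, and these counts do not measure an excess over all genes. In TPM 3 members lay apart, Tuba1a, Tubb2a and Tubb6, all higher in propyzamide, where 6.1% of all tested genes lay higher and 22.4% lower. The summed level of the 10 genes was 874, 504 and 689 TPM in propyzamide, against 727 and 306 TPM in vehicle. The groups overlapped, and the log2 ratio of the group means, 0.42, was smaller than the spread between replicates (0.60, pooled SD on the log2 scale). The same ratio was 0.94 in CPM, and 0.69 in TPM rescaled without rRNA-like and mitochondrial transcripts. Without vehicle replicate 1 that ratio was 1.17, and without vehicle replicate 2 it was -0.077.

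**Figure D2:**
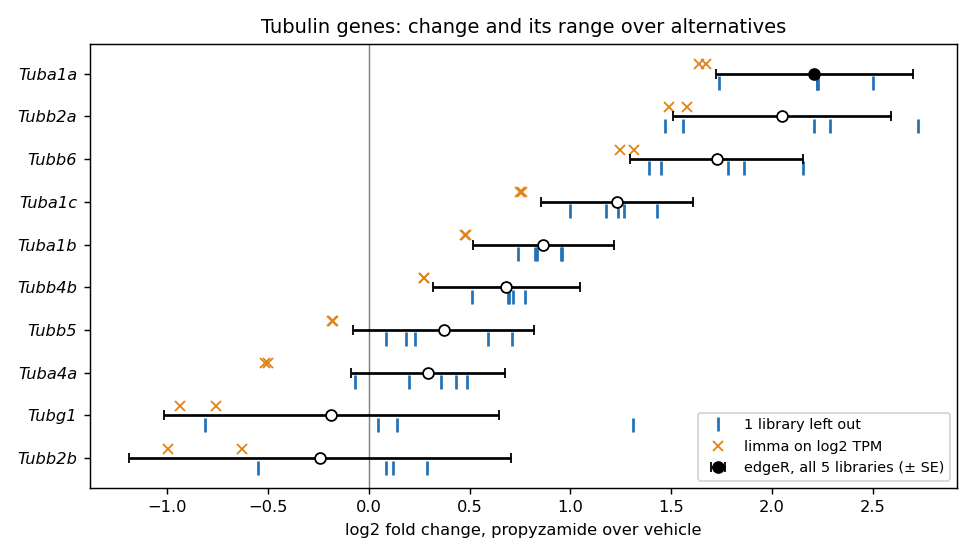
Log2 fold change of each tubulin gene, propyzamide over vehicle, from edgeR on all 5 libraries (circle ± SE, filled where the adjusted p is under 0.05), with 1 library left out (blue ticks) and from limma on log2 TPM at both pseudocounts (orange crosses). Only Tuba1a is filled, and the crosses lie left of the circles for every gene.

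The isotype make-up of the tubulin pool was compared as each gene's percent of the summed TPM of the 10 genes, a measure that does not depend on the scaling between libraries. Tuba1a made up 6.88%, 17.8% and 20.4% of the pool in propyzamide, against 5.94% and 6.15% in vehicle. In propyzamide replicates 2 and 3 it was about as abundant as Tuba1b, at 0.858 and 1.12 times its TPM, whereas in propyzamide replicate 1 the ratio was 0.326 and in vehicle it was 0.280 and 0.314. The share was thus raised by a large margin in 2 libraries and by little in the third.

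Tubb4b, the largest isotype, made up 35.4%, 33.01% and 27.0% of the pool in propyzamide, against 37.1% and 37.3% in vehicle. Tubb5 made up 8.39%, 4.13% and 8.98% in propyzamide, against 12.6% and 9.58% in vehicle. Tuba4a made up 6.17%, 4.87% and 2.48% in propyzamide, against 7.10% and 10.4% in vehicle. These 3 shares were lower in each propyzamide library than in either vehicle library. Tubb2a ran the other way, at 2.86%, 3.22% and 6.17% in propyzamide and 1.21% and 2.75% in vehicle.

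For these 5 genes the groups did not overlap, and an exact two-sided permutation test over the 5 libraries gave p = 0.2, the smallest value that 3 libraries against 2 allow. That test therefore cannot reach 0.05 for a share in this design. The other 5 of the 10 shares compared overlapped between the groups. Among them, the share of Tuba1b was 21.1%, 20.8% and 18.2% in propyzamide and 21.2% and 19.6% in vehicle, with means of 20.01% ± 1.595 (SD, n = 3) in propyzamide and 20.4% ± 1.11 (SD, n = 2) in vehicle.

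Alpha tubulins together made up 49.5%, 54.2% and 52.9% of the pool in propyzamide, against 45.2% and 46.3% in vehicle, and beta tubulins 49.6%, 45.4% and 47.0% in propyzamide, against 53.1% and 53.1% in vehicle. The alpha share was 6.48 percentage points higher in propyzamide, with a pooled SD between replicates of 2.02. With 1 library left out the difference was 5.48 to 7.82 points, and its sign could not turn because the groups did not overlap. By gene, the difference was 8.97 points for Tuba1a, 2.14 for Tuba1c, -0.39 for Tuba1b and -4.24 for Tuba4a. The higher alpha share was thus not shared by all alpha genes. Shares of 1 pool are tied to each other, so a higher share of Tuba1a lowers the others by arithmetic. Gamma tubulin made up 0.822%, 0.345% and 0.165% in propyzamide and 1.72% and 0.588% in vehicle, with overlap.

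**Figure D3:**
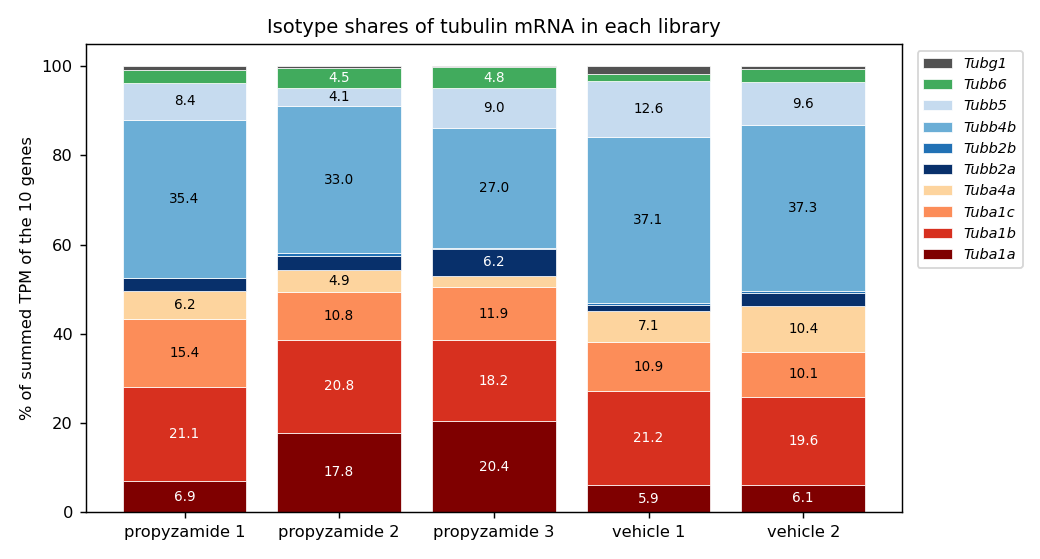
Share of each gene in the summed TPM of the 10 tubulin genes (percent, stacked to the whole) in the 3 propyzamide libraries and the 2 vehicle libraries; alpha genes are at the bottom in red tones, beta genes in blue and green, and Tubg1 in grey at the top. The Tuba1a block at the foot is largest in propyzamide replicates 2 and 3 (17.8% and 20.4%).

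How reads were divided among near-identical copies bears on these shares. Tuba1a, Tuba1b and Tuba1c lie together on chromosome 15 of GRCm38 (98949837 to 98953703, 98931425 to 98934565 and 99029891 to 99038110), and their coding sequences are 97.2% to 98.3% identical. Tubb2a and Tubb2b are neighbours on chromosome 13 (34074274 to 34078007 and 34126748 to 34130466) and 96.5% identical. The last 60 coding bases, which encode the tail where isotypes differ most, are shown for Tubb2a and Tubb2b with the stop codon included, because they show how little separates these copies. Each is read 5′ to 3′ on the coding strand, and capitals mark the bases of Tubb2b that differ from Tubb2a.
Tubb2a: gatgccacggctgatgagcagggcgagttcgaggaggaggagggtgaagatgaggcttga
Tubb2b: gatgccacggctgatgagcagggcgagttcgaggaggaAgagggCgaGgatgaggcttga
Tubb2a and Tubb2b differ at 3 of these 60 bases.

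Over whole transcripts, 24.5% of the 50-base windows of Tuba1a occur in no other annotated gene, against 16.9% for Tuba1b, 39.0% for Tuba1c, 50.4% for Tubb2a and 44.5% for Tubb4b, whose closest match is the pseudogene Tubb4b-ps1. For Tubb5 the share is 99.9% and for Tubb6 100%. The level of each Tuba1 copy and of Tubb4b, Tubb2a and Tubb2b is therefore uncertain, whereas Tubb6 shares no such window. When the 3 Tuba1 copies were summed into 1 gene, the log2 fold change was 1.29 with an edgeR adjusted p of 0.108, so the call for Tuba1a was not kept for the summed copies. Their joint share of the pool was 43.4%, 49.3% and 50.4% in propyzamide, against 38.1% and 35.9% in vehicle, again without overlap. Tubb2a and Tubb2b summed had a log2 fold change of 1.71 (edgeR adjusted p = 0.0769).

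At the level of transcripts, 12 of the 26 transcripts of the members could be tested and edgeR called 0 of them, as it called 0 of 16682 transcripts in all (0%). At an unadjusted p under 0.05 there were 5 of the members' transcripts, and 10.2% of all transcripts passed that mark. DESeq2 called 1 of the members' transcripts, the single one of Tuba1a, and 441 in all. Tuba4a was the member with the most divided transcripts. The transcript ENSMUST00000079464.12 took 31.2%, 41.04% and 78.0% of the gene's TPM in propyzamide, against 15.4% and 5.40% in vehicle, with a log2 fold change of 1.91 ± 0.55 (SE; edgeR adjusted p = 0.373 over transcripts). Tuba4a overlaps the gene Stk16 on the opposite strand, and 47.7% of the 50-base windows of its longest transcript also lie in Stk16. That longest transcript took 8.76%, 6.64% and 0% of the gene's TPM in propyzamide, against 12.9% and 14.3% in vehicle. The counts of Tuba4a are uncertain where reads were not assigned by strand.

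The members were compared by their pattern over the 5 libraries, measured as the root mean square difference between centred log2(CPM + 1) profiles. The closest of the 45 pairs was Tuba1b with Tubb4b, an alpha and a beta gene, at 0.111, followed by Tuba1b with Tuba1c at 0.222. Tubb2a with Tubb6 (0.309) and Tuba1a with Tubb6 (0.415) were the closest pairs among the genes with the largest differences. The near-identical copies Tuba1a and Tuba1b were further apart, at 0.826, and Tubb2a and Tubb2b were the furthest of all pairs, at 1.65. Tubb2b rested on 2 to 15 counts per library, so its profile is uncertain. Tubg1, also low in counts, lay at 1.64 from Tubb2a.

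Among 4320 other protein-coding genes with a mean of at least 20 CPM, those nearest to Tuba1a were Col5a2, a chain of fibrillar collagen V, at 0.161, the matrix glycoprotein Tnc at 0.214 and the small GTPase Rhod at 0.225. Col5a2 stood at 29.9, 44.7 and 94.4 CPM in propyzamide and at 12.8 and 12.5 CPM in vehicle (edgeR adjusted p = 0.0514). Nearest to Tuba1b were Atp5g2, a subunit of ATP synthase (0.0654), Sdhc, a subunit of succinate dehydrogenase (0.0736), and the 14-3-3 protein Ywhaz (0.0817). Nearest to Tubb4b were the dehydrogenase Dhrs11 (0.0659), the vesicle tether Uso1 (0.0909) and the ribosomal protein gene Rpl36al (0.0920).

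Cell type markers moved between the same libraries. Summed smooth-muscle markers, 10 of 10 present in every library, were 5660, 8313 and 9374 CPM in propyzamide and 504 and 3298 CPM in vehicle, and Tuba1a, Tubb2a and Tubb6 were likewise highest in propyzamide replicate 3. Between vehicle replicates 1 and 2, where the muscle markers were lower in replicate 1, Tubb2a stood at 7.44 and 15.9 CPM, Tubb6 at 11.6 and 18.7 CPM and Tuba1a at 42.6 and 40.3 CPM. Summed fibroblast markers, 8 of 8 present, were 332, 940 and 1048 CPM in propyzamide and 436 and 319 CPM in vehicle. Like the share of Tuba1a, they were high in propyzamide replicates 2 and 3 and low in the other three libraries. Enteric neuron markers, 8 or 9 of 9 present in each library, summed to 55.1, 138 and 95.6 CPM in propyzamide and 36.4 and 73.2 CPM in vehicle. Epithelial markers, 11 of 11 present, summed to 8968, 8696 and 10923 CPM in propyzamide and 5522 and 5770 CPM in vehicle. Of these 11 genes only 7 had a positive log2 fold change, with a median of 0.18 over the list, so the sum does not stand for every epithelial marker. Immune markers, 6 to 9 of 10 present in each library and with Cd3e and Cd79a at 0 in propyzamide, summed to 43.5, 144 and 212 CPM in propyzamide and 105 and 82.8 CPM in vehicle, with overlap. The part of these cell types in the tubulin values was not tested.

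**Figure D4:**
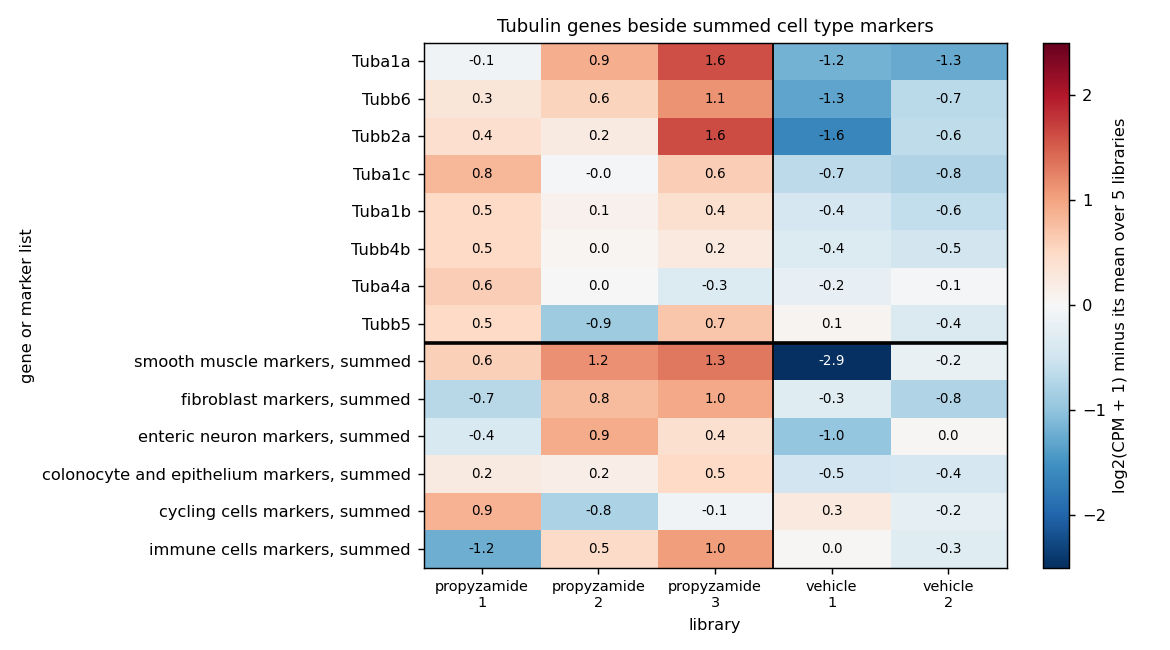
Centred log2(CPM + 1) of 8 tubulin genes (above the line) and of summed cell type markers (below it) in each library, with propyzamide at the left; the colour scale and the printed values give the distance from the row's mean over 5 libraries. Tuba1a runs from -1.26 in vehicle replicate 2 to 1.61 in propyzamide replicate 3, and the smooth-muscle row is lowest in vehicle replicate 1 (-2.89).

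The other tubulin genes were low. Of 10 listed, 2 passed the filter on low counts: Tubb3, the neuronal beta tubulin, at 4.68, 5.26 and 4.39 TPM in propyzamide and 2.41 and 6.49 TPM in vehicle, and Tubal3, a divergent alpha-like gene, at 4.31, 1.25 and 4.37 TPM in propyzamide and 3.67 and 2.57 TPM in vehicle. Neither passed (edgeR adjusted p = 0.623 and 0.847) and in both the groups overlapped. Tubb4a, Tubd1 and Tube1 had mean levels of 1.21, 2.02 and 1.02 TPM over all libraries, resting on at most 9 counts in any library. Tubb1, the beta tubulin of platelets, had 0 counts in propyzamide and 1 count in each vehicle library.

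Counting these and the genes that fold, nucleate and modify tubulin, 43 genes outside the 10 members were tested. Of these, 0 passed edgeR's adjusted threshold, 5 had an unadjusted p under 0.05 where 18.2% of all genes did, and DESeq2 called 1, Ttll7. The chaperonin CCT and prefoldin, which fold new tubulin, had 12 positive and 2 negative values of 14, with a median log2 fold change of 0.49. Its smallest p-values belonged to 3 CCT subunits, Cct6a at 0.80 ± 0.36, Cct7 at 0.70 ± 0.35 and Tcp1 at 0.57 ± 0.36 (SE; edgeR adjusted p = 0.258, 0.326 and 0.445). The tubulin cofactors, which join alpha and beta into the dimer, and Ttc5 had a median of -0.15 over 8 genes. Ttc5 itself stood at -0.16 ± 0.65 (SE; edgeR adjusted p = 0.932), and Tbca, the cofactor that holds beta tubulin, at 0.73 ± 0.38 (edgeR adjusted p = 0.333). Tbcd and Tbcc, which act later in the same folding path, stood at -0.68 ± 0.50 and -0.35 ± 0.62 (edgeR adjusted p = 0.530 and 0.833).

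Genes of the gamma-tubulin ring complex had a median of -0.60 over 8 genes, 7 of them negative. Over all 12024 genes tested, 5905 were positive and 6119 negative. Cdk5rap2, which activates the ring complex, stood at -1.40 ± 0.50 (SE; edgeR adjusted p = 0.161), followed by the ring subunits Tubgcp4 at -0.61 ± 0.45 and Tubgcp3 at -0.58 ± 0.44 (edgeR adjusted p = 0.523 and 0.534) in order of p. The enzymes that modify tubulin after assembly had a median of -0.77 over 11 genes. Ttll7, an enzyme that adds glutamates to the tail of beta tubulin, stood at 2.34 ± 0.59 (SE; edgeR adjusted p = 0.0570), with 16.99, 53.9 and 32.3 CPM in propyzamide and 4.14 and 9.65 CPM in vehicle. Atat1, which acetylates alpha tubulin inside the microtubule, was at 4.08, 6.67 and 6.09 CPM in propyzamide and 9.51 and 20.4 CPM in vehicle (-1.41 ± 0.58, SE; edgeR adjusted p = 0.219). The groups did not overlap in CPM for either enzyme, although in TPM those of Ttll7 did. Ttll4, a further glutamylase, stood at -1.01 ± 0.46 (edgeR adjusted p = 0.264). Of the receptor genes used as background, 12.7% to 47.9% had a count in propyzamide, against 77.3% and 60.8% in vehicle. The part of that background in the values of the ring complex and the modifying enzymes was not tested.

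**Figure D5:**
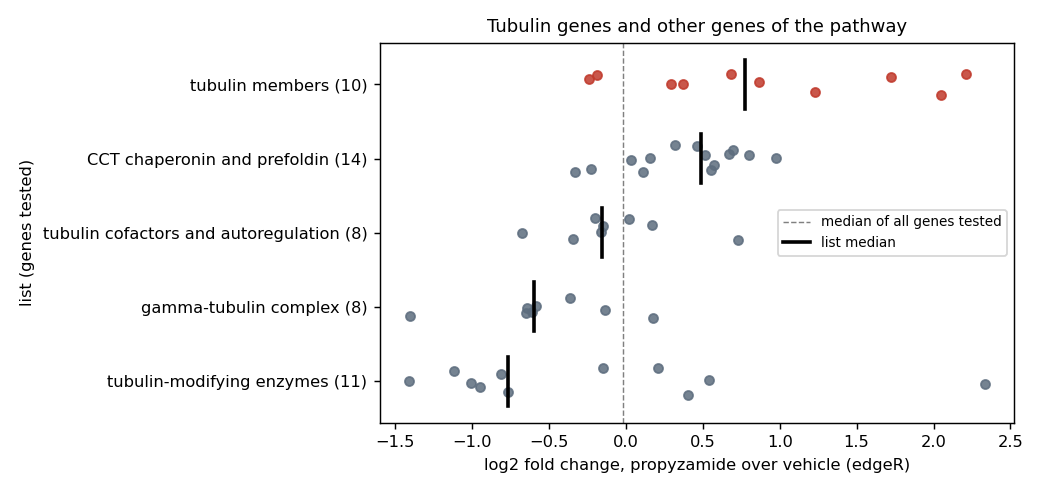
Log2 fold change, propyzamide over vehicle (edgeR), of the tubulin genes (red) and of the other listed genes of the pathway (grey), with each list's median (black bar) and the median of all genes tested (dashed line, -0.018). List medians run from 0.77 for the tubulin genes to -0.77 for the modifying enzymes.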

How the data were processed

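RNA was extracted with Trizol from frozen colon and made into libraries by the SMART-Seq2 method, per the labels' protocols. The authors deposited 1 table per library with the expected count (an estimated count, per the file headers), TPM and FPKM of each transcript and its percent of the gene's expression. FPKM and percent, as deposited, were not used. RSEM, kallisto and GRCm38 are named per the submitters' processing notes, without versions or roles. Whether counting used strand, and which aligner settings and annotation were used, is not given in the sources used here.

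Gene values were the summed, then rounded, estimated counts of 142647 transcripts, giving 55471 genes. Symbols were found for 99.4% of identifiers, and annotation and coding sequences came from GENCODE M21. Genes were tested with edgeR 4.0.16 in R 4.3.3 (filterByExpr, TMM, quasi-likelihood, Benjamini-Hochberg over all genes, threshold 0.05). SEs were taken from the F statistic. Shares used the authors' TPM summed over transcripts. One count equalled 0.340 to 0.609 CPM. There are no molecular identifiers, so copies of 1 molecule are counted as separate reads. The SEs rest on the spread between libraries as fitted by edgeR.

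On simulated counts for 12024 genes with 200 changed, 1.2%, 48.2% and 74.6% of genes changed 2-fold, 4-fold and 8-fold were recovered and 2.6% of calls were false. For 16682 transcripts these shares were 0%, 1.5% and 3%, with 0% false. No 2 libraries were duplicates (chi-square per degree of freedom of at least 16.0). DESeq2 1.42.0, limma 3.58.1 (with a mean-variance trend) and other settings were alternatives.

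The members and lists were chosen with earlier results of these data known. All 10 members were named whatever their values. From each pathway list any called gene was named, otherwise up to 3 of smallest p, and other tubulin genes from a mean of 1 TPM. Ttc5 and Tubb1 were added after their values were seen. Likeness took the most abundant alpha and beta member and each member called.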

Additional observations from a re-analysis of the deposited data

How the results depend on the processing

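Of the 10 tubulin genes, the number called was 1 in the edgeR test. It was 4 with no filter on low counts and 4 with DESeq2, 3 with a replicate block, and 0 with a filter of 10 CPM in 2 libraries, with limma at either pseudocount and with near-identical copies merged. Leaving out 1 library gave 0 to 3; where a vehicle library is left out, the lone one is assumed to vary like the propyzamide libraries. Over all genes 229 were called, against 1327 with no filter, 148 at 10 CPM, 565 with DESeq2, 490 with limma on log2(TPM + 1), 362 with rRNA-like and mitochondrial genes removed and 36 to 499 with 1 library left out. Of transcripts of the members, 0 were called in edgeR, 1 with DESeq2 and 1 with no filter. The summed TPM had a log2 ratio of 0.42, and -0.077 to 1.17 with 1 library left out, with 0.94 in CPM and 0.69 in rescaled TPM. The cause of these shifts was not tested.

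The replicate numbers of the titles were also fitted as a block, which called 639 genes, with 50.7% of them higher in propyzamide, and among the tubulins Tuba1a, Tubb2a and Tubb6. Number 3 occurs only in propyzamide, so its block term takes up that library. The group difference in this fit therefore rests on numbers 1 and 2. The log2 fold change of Tuba1a was 1.65 here, against 1.74 in edgeR without propyzamide replicate 3. Whether same-numbered libraries shared more than a number was not settled. The correlation of their deviations from the group means was 0.171 for number 1 and 0.148 for number 2. With only 2 vehicle libraries, the crossed pairs mirror these values, at -0.171 and -0.148, so this check cannot decide.

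Directions held in every alternative run for Tuba1a, Tuba1b, Tuba1c, Tubb2a, Tubb4b and Tubb6. These are the 6 members whose groups lay apart in TMM-scaled CPM, so leaving out a library could hardly turn their sign. Most other runs reuse the same counts, so these runs test the direction little. In the run with near-identical copies merged, the values of Tuba1a and Tubb2a stand for the summed copies, and Tuba1b and Tuba1c have none. Tuba4a turned to -0.50 and -0.52 with limma, to -0.025 with an offset for transcript length, and ranged from -0.067 to 0.48 with 1 library left out. Tubb5 turned to -0.18 with limma at both pseudocounts and to -0.045 with the replicate block. Tubb2b ranged from -0.55 to 0.29 and Tubg1 from -0.82 to 1.31 with 1 library left out, and Tubg1 was 0.25 with the replicate block. Tubb2b at 10 CPM and without propyzamide replicate 2, and Tubg1 without propyzamide replicate 1, did not pass the filter. The difference in the share of Tuba1b was -0.39 points, and ranged from -1.18 to 0.52 points with 1 library left out.

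Counts are few for the lowest genes: Tubg1 and Tubb2b rest on 2 to 32 counts per library. Only 1.2% of genes changed 2-fold were recovered in simulated counts, and the estimates for Tuba1b, Tubb4b and Tubb5 were smaller than 2-fold. That recovery was not split by level, so it does not give the chance of a call for genes as abundant as these.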

Other observations

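The tubulin genes also have 9 annotated transcripts without a coding sequence, mostly with a retained intron. These took 1.26%, 0% and 1.28% of the members' summed TPM in propyzamide, against 5.47% and 2.08% in vehicle, and rested on 18.3, 0 and 11.6 estimated counts in propyzamide, against 35.1 and 9.69 in vehicle. The background at receptor genes, taken over the whole set, was 0.0837, 0.667 and 0.196 counts per kilobase in propyzamide, against 1.30 and 0.819 in vehicle. Vehicle replicate 1 was highest in both measures. The part of that background in the transcript values was not tested.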
